A study of Mus musculus with 6 samples.

Results

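*Rpl3* and *Eef1a1*, which encode ubiquitous parts of the translation machinery, and *Rpl3l* and *Eef1a2*, their paralogs known from striated muscle, were examined in C2C12 cells before and after differentiation. The 4 genes were chosen by symbol, and each had 1 row among the 54525 gene rows of the count files. The cells are those of C2C12, an established line of mouse myoblasts that exit the cell cycle and fuse into multinucleated myotubes when serum is lowered. Illumina RNA-seq of total RNA had been performed on 3 samples of myoblasts (day 0, D0) and 3 samples of myotubes after 5 days of differentiation (D5). All 6 samples were wild type and untreated according to their labels, and all came from this 1 line, so the replicates do not cover different animals. The study's methods give a different serum, at a lower level, for differentiation than for growth. Day and medium therefore change together here and cannot be told apart. The labels do not say whether the replicates of a group were independent cultures grown apart, so p-values measure the spread between these samples.

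RPL3 is a core protein of the large (60S) ribosomal subunit that lies close to the peptidyl transferase center, and RPL3L can take its place in ribosomes of the heart and skeletal muscle. The eEF1A proteins, encoded by *Eef1a1* and *Eef1a2*, carry aminoacyl-tRNA to the ribosome in a form bound to GTP. In the mouse, eEF1A1 gives way to eEF1A2 in skeletal muscle, heart and neurons during the weeks after birth.

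The genes lie on 4 different chromosomes of GRCm38, and all are annotated as protein coding. *Rpl3* (ENSMUSG00000060036.14) spans 80077791 to 80091868 on the minus strand of chromosome 15, and *Rpl3l* (ENSMUSG00000002500.15) spans 24727820 to 24736143 on the plus strand of chromosome 17. *Eef1a1* (ENSMUSG00000037742.14) spans 78478449 to 78489151 on the minus strand of chromosome 9, and *Eef1a2* (ENSMUSG00000016349.10) spans 181147653 to 181157014 on the minus strand of chromosome 2. On the opposite strand, no gene had an exon that overlapped an exonic base of the 4 genes. Other genes on the same strand took 2.93% of the exonic length of *Rpl3* and 4.33% of that of *Eef1a1*.

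Whether reads of a muscle paralog can be told from those of its ubiquitous gene depends on how far the coding sequences differ, so stretches at both extremes are shown. The coding sequences of *Rpl3* (1209 bases) and *Rpl3l* (1221 bases) were identical at 896 of 1205 aligned bases, or 74.4%. Those of *Eef1a1* (1386 bases) and *Eef1a2* (1389 bases) were identical at 1110 of 1386 aligned bases, or 80.1%. The longest stretches that the coding sequences of each pair shared without a mismatch were 22 bases for *Rpl3* and *Rpl3l*, at coding positions 145 to 166, and 23 bases for *Eef1a1* and *Eef1a2*, at positions 304 to 326. Positions count from 1 at the first base of the start codon, and the sequences are those of GENCODE transcripts.
Rpl3 and Rpl3l, shared: tacaaggctggcatgacccaca
Eef1a1 and Eef1a2, shared: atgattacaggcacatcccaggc

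The aligned windows of 60 bases with the fewest identical bases held 35 of them in *Rpl3* and *Rpl3l*, at positions 163 to 222, and 38 in *Eef1a1* and *Eef1a2*, at positions 643 to 702. Capitals mark the bases that differ between the paralogs.
Rpl3: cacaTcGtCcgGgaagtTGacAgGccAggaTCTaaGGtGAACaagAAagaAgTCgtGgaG
Rpl3l: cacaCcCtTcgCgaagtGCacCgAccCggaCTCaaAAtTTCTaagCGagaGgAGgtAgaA
Eef1a1: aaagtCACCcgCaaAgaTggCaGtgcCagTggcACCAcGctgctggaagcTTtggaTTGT
Eef1a2: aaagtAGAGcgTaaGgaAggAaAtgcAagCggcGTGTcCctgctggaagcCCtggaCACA

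Over all annotated transcripts, 0 of the 50-base sequences of *Rpl3* occurred in *Rpl3l* and 0 of those of *Eef1a1* occurred in *Eef1a2*. The ubiquitous genes did share sequence with processed pseudogenes, which are copies of an mRNA inserted elsewhere in the genome. Of the 50-base sequences of *Rpl3* 33.7% occurred in an annotated pseudogene, and of those of *Eef1a1* 37.2% did. For *Rpl3l* and *Eef1a2* this share was 0%.

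Counts assigned to genes ranged from 36555048 to 40895840 for the D0 libraries and from 25449759 to 25811300 for the D5 libraries. Myogenic markers other than *Des* followed the labels. *Myog*, which drives terminal differentiation, rose from 2.76 ± 0.367 to 515 ± 3.24 CPM, and *Ckm*, the muscle creatine kinase, rose from 2.09 ± 0.507 to 653 ± 22.4 CPM (SD, n = 3 each). CPM are counts per 1000000 counts after scaling with TMM factors. Of 8 markers of myoblasts and myotubes, the myotube markers *Myog*, *Mymk*, *Myh3*, *Acta1* and *Ckm* were higher at D5 in edgeR's quasi-likelihood test. The myoblast markers *Myod1* and *Myf5* were lower. *Des*, listed with the myoblast markers, was higher (log2 fold change 0.72), and was at 0.16 without a call when scaled to synthetic spike-in RNAs (ERCC). Genes with 3 counts or fewer are called not detected in that library.

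*Rpl3l* was close to the limit of detection in myotubes and was not detected in myoblasts. The 3 myoblast libraries held 0, 1 and 0 counts on it, and the 3 myotube libraries held 4, 8 and 8. The groups did not overlap, and each D5 library was above the limit. The mean level was 0.00792 ± 0.0137 CPM in myoblasts and 0.268 ± 0.0945 CPM in myotubes (SD, n = 3 each). Against a level of 3 counts in each D0 library, *Rpl3l* was at least 3.56-fold higher at D5. Summed over the group, the 20 counts at D5 gave 0.268 CPM with an exact Poisson 95% interval of 0.164 to 0.414, and the 1 count at D0 gave an upper limit of 0.0465 CPM. Intervals here cover counting error only.

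Of 21989 protein-coding rows, 550 (2.5%) had the same pattern, with 3 counts or fewer in every D0 library and more than 3 in every D5 library. Among the 13050 protein-coding rows above 3 counts in every D5 library, 778 (5.96%) had a lower level per exonic length than *Rpl3l*, in TPM (transcripts per 1000000 transcripts).

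*Eef1a2* was not detected in either group. It had 0, 0 and 0 counts at D0 and 2, 3 and 2 counts at D5. All 3 D5 libraries were thus above the D0 libraries but at or under the limit, so no fold is given. The 7 counts summed over D5 corresponded to 0.0937 CPM (exact Poisson 95% interval 0.0377 to 0.193), and the absence of counts at D0 allowed up to 0.0308 CPM. At or under 3 counts in every library were 7598 of the 21989 protein-coding rows (34.6%), *Eef1a2* among them.

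Both muscle paralogs had too few counts to pass edgeR's filter, filterByExpr, and were not tested in the main comparison. Without the filter a row needed only a count in any library. *Eef1a2* then entered through its D5 counts alone and *Rpl3l* almost so, and no p is given for them. Of the 6 fits that each left out a library, *Rpl3l* passed the filter in that without D5 replicate 1, the library with 4 counts, and no p is given for it because the filter then rests on the libraries where the gene was high. The fitted fold changes of genes with so few counts depend on the prior count and are not given.

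*Rpl3* was lower in myotubes by a modest amount. It had 396, 415 and 373 CPM in the D0 libraries and 320, 328 and 312 CPM in the D5 libraries. The groups did not overlap, with the myotube libraries lower, and the share of all genes without such overlap was not counted. The mean fell from 395 ± 20.9 to 320 ± 8.1 CPM (SD, n = 3 each), so that 81% of the myoblast level remained. The log2 fold change was -0.30 with a standard error of 0.036 (adjusted p = 5.6e-09, edgeR's quasi-likelihood test).

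*Eef1a1* was lower as well, by less. Its level was 5637, 5555 and 5479 CPM in the D0 libraries and 5119, 4888 and 4897 CPM in the D5 libraries. The groups again did not overlap, and here too the share of all genes without overlap was not counted. The mean fell from 5557 ± 79.4 to 4968 ± 131 CPM (SD, n = 3 each), so that 89.4% of the myoblast level remained. The log2 fold change was -0.16 with a standard error of 0.034 (adjusted p = 7.7e-05, edgeR's quasi-likelihood test).

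Of the 4 genes, 2 passed the filter, and both were called lower. Over the 16290 genes tested, 82.9% were called in either direction, 42.2% higher and 40.8% lower at D5, so a call for a gene is common in this comparison. Both calls held with total counts alone, at log2 fold changes of -0.39 for *Rpl3* and -0.25 for *Eef1a1*. Of the alternatives run, only scaling to the ERCC spike-ins lost them. With libraries scaled to the ERCC spike-ins, synthetic RNAs that took from 0.720% to 2.09% of the counts in the D5 libraries, the log2 fold change was -0.85 for *Rpl3* (adjusted p = 0.19, edgeR) and -0.73 for *Eef1a1* (adjusted p = 0.27, edgeR). The median of all genes was then -0.58, and relative to that median the values were -0.28 and -0.15.

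**Figure D1:**
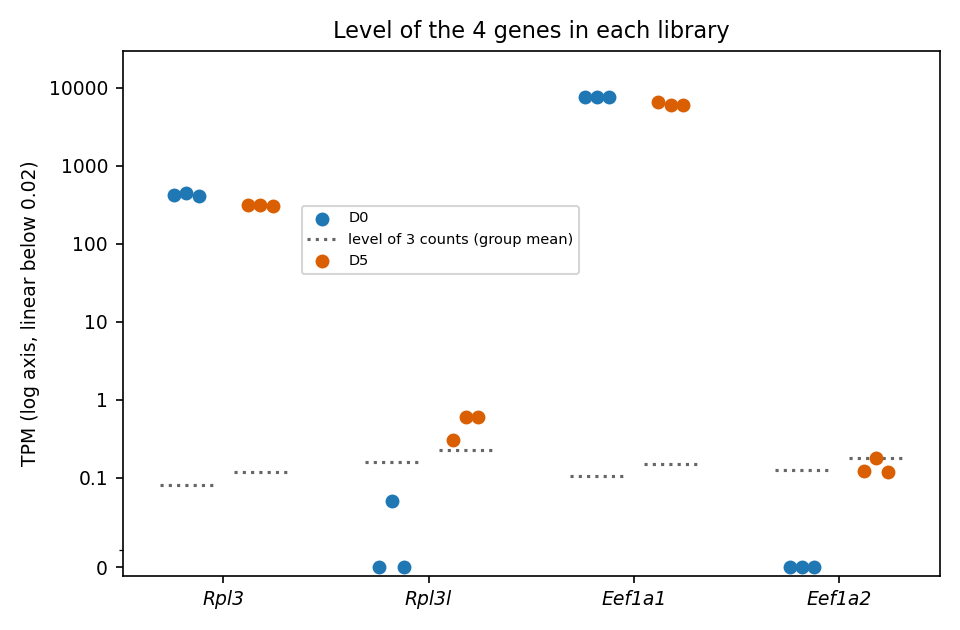
Level of *Rpl3*, *Rpl3l*, *Eef1a1* and *Eef1a2* in each library in TPM (per exonic length, log axis that is linear below 0.02), with 1 point per library for D0 (blue) and D5 (orange) and dotted lines at the level of 3 counts. The ubiquitous genes lie between 303 and 7734 TPM in every library, *Rpl3l* lies above the dotted line only at D5, and *Eef1a2* lies at or below the line throughout.

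Compared per exonic length, the order of mean levels at D5 was *Eef1a1*, *Rpl3*, *Rpl3l* and *Eef1a2*. *Eef1a1* had 7712 ± 20.5 TPM at D0 and 6186 ± 288 TPM at D5, the 8th and the 11th highest mean of 54488 rows with a known length. *Rpl3* had 430 ± 21.2 and 312 ± 8.68 TPM, at rank 295 and 389. The D5 level of *Rpl3l* was 0.504 ± 0.171 TPM, and that of *Eef1a2* was 0.139 ± 0.0336 TPM (SD, n = 3 in every group). The libraries of the 4 genes did not overlap at D5, although *Eef1a2* was under the limit of detection. At D0 *Rpl3l* and *Eef1a2* were both undetected and had no order.

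The exonic length joins the exons of all annotated transcripts and is 3175 bases for *Rpl3*, while its main coding transcript is 1351 bases long. Among *Rpl3* and 45 other 60S ribosomal protein genes, *Rpl3* ranked 32nd in TPM at D0 and 33rd at D5 by exonic length. By coding length it ranked 41st at both times.

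The share of a muscle paralog in its pair does not depend on the scaling of the libraries. Per exonic length, *Rpl3l* made up 0%, 0.0111% and 0% of the pair with *Rpl3* in the D0 libraries and 0.0961%, 0.191% and 0.199% in the D5 libraries. The group means were 0.00369% ± 0.00639 and 0.162% ± 0.0571 (SD, n = 3 each), and the exact permutation test (two-sided) gave p = 0.1, the smallest that 3 libraries against 3 can give. The Wilson 95% interval was 0.0374% to 0.247% in D5 replicate 1, the lowest of the D5 libraries, and 0% to 0.0499% in D0 replicate 1, so these ranges overlapped. At D5 *Rpl3* was 618-fold above *Rpl3l* per exonic length and 1206-fold above it per coding length, by which the share of *Rpl3l* was 0.083% ± 0.0293 (SD, n = 3).

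*Eef1a2* made up none of the pair with *Eef1a1* at D0, with 0 of 211340, 233744 and 220789 counts. The upper Wilson 95% limits of its share per exonic length at D0 were 0.00217%, 0.00197% and 0.00208%. In the D5 libraries the share was 0.00186%, 0.00298% and 0.00196%, so in D5 replicates 1 and 3 it lay under each of the D0 limits. A limit of 3 counts corresponded to 0.00142%, 0.00128% and 0.00136% of the counts of the pair at D0, without regard to length. At D5 it corresponded to 0.00233%, 0.00249% and 0.00246%. *Eef1a2* held 0.00155%, 0.00249% and 0.00164% of the counts of the pair there, at or under the limit. The D5 mean was 0.00227% ± 0.000618 (SD, n = 3), with p = 0.1 in the exact permutation test (two-sided). The p-values of the 2 pairs and of the pseudogene shares given further on were all 0.1 also after Benjamini-Hochberg adjustment.

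Other pairs of translation genes offer a scale for these shares, although sequence that they share within a pair or with pseudogenes was not examined. Of 13 such paralogs, *Rpl10l*, *Rpl39l*, *Rps4l* and *Eif2s3y* had 0 counts in every library, as *Eef1a2* had at D0. *Rps27l* held the largest share of its pair, 39% ± 0.433 at D0 and 34.7% ± 1.85 at D5. The smallest share among those with counts was that of *Rpl36al*, 1.12% ± 0.216 of the pair with *Rpl36a* at D0, and at D5 that of *Eif5a2*, 1.37% ± 0.146 of the pair with *Eif5a* (SD, n = 3 each). Every one of these 9 was above the D5 share of *Rpl3l*.

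Of the 9 tested, 2 rose and 5 fell, with a median log2 fold change of -0.40 against 0.00 over all genes. Among all genes tested, 42.2% were higher and 40.8% lower. *Rpl7l1* (log2 fold change 0.22) and *Eif1b* (0.33), a paralog of the start-codon factor *Eif1*, rose. *Eif5a2* fell most, from 29.7 ± 0.339 to 9.91 ± 0.824 CPM (log2 fold change -1.58, adjusted p = 2.4e-20, edgeR), and its partner *Eif5a*, a factor that relieves stalled elongation, fell by 0.69 on the log2 scale. *Eif4e3* (-1.12), of the cap-binding family, *Pabpc4* (-0.76), which binds poly(A) tails, *Rpl22l1* (-0.43) and *Rps27l* (-0.40) fell as well. *Rpl36al* (0.37, adjusted p = 0.058) and *Gspt2* (-0.05, adjusted p = 0.61), a paralog of the release factor *Gspt1*, had no call in edgeR's test. Of the partners, *Pabpc1* fell by 1.49 and *Eif4e* by 0.67 on the log2 scale, while *Rpl39* was at 0.12 (adjusted p = 0.017, edgeR), without a call in DESeq2 or with total counts alone and at -0.43 with scaling to the spike-ins. The rises of *Rpl7l1* and *Eif1b* turned to -0.33 and -0.22 with scaling to the spike-ins.

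**Figure D2:**
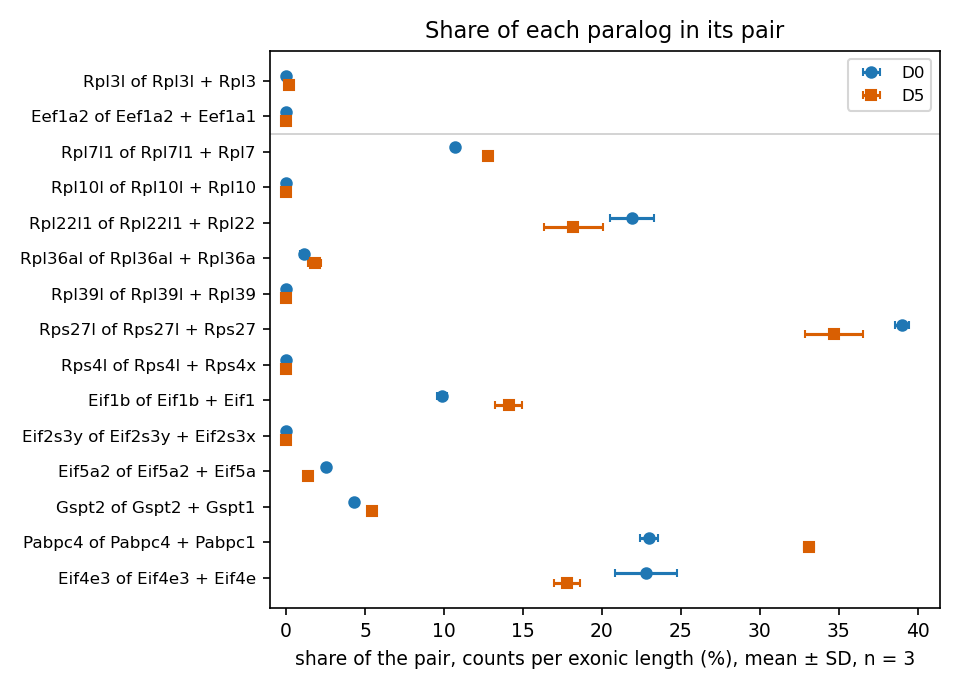
Share of each paralog in the summed level of its pair (%, counts per exonic length, mean ± SD, n = 3), at D0 (blue circles) and D5 (orange squares), with the muscle paralogs above the grey line. *Rpl3l* and *Eef1a2* lie at 0.162% and 0.00227% at D5, close to 0 on this axis, whereas *Rps27l* lies at 34.7%.

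Counts on pseudogene copies bear on *Rpl3* more than on *Eef1a1*. By alignment of their transcripts, 23 annotated pseudogenes were copies of *Rpl3* and 14 were copies of *Eef1a1*, with at least 90% identity over at least 200 bases. Nearly all counts on *Rpl3* copies were on *Rpl3-ps1*, on chromosome X, which had 4633, 4873 and 4249 counts at D0 and 1370, 1715 and 1570 counts at D5. It differed from the 1209 coding bases of *Rpl3* at 2 positions, written with the base of *Rpl3* first. These are C57A and T786C, and the windows around them, at positions 37 to 77 and 766 to 806, show how little separates reads of gene and copy, with the differing base in capitals.
Rpl3, 57: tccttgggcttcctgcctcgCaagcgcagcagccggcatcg
Rpl3-ps1, 57: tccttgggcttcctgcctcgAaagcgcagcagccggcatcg
Rpl3, 786: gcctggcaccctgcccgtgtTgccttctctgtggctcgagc
Rpl3-ps1, 786: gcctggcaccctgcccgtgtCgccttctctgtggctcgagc

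Of the counts on *Rpl3* and its copies, 24%, 22.1% and 22.3% were on the copies in the D0 libraries and 14.7%, 17.6% and 16.9% in the D5 libraries. The groups did not overlap, at 22.8% ± 1.06 and 16.4% ± 1.49 (SD, n = 3 each; exact permutation p = 0.1, two-sided, the smallest possible). *Rpl3-ps1* itself fell from 115 ± 9.11 to 62.4 ± 7.54 CPM (log2 fold change -0.88, adjusted p = 6.1e-15, edgeR). Of the other 22 copies, 17 were at or under 3 counts in every library. With the counts of the copies added to the gene, the log2 fold change of *Rpl3* was -0.42. The division of reads between *Rpl3* and *Rpl3-ps1* is uncertain, since the treatment of reads with several matches is not given in the sources used here.

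The copies of *Eef1a1* took 0.435% ± 0.0288 of the family's counts at D0 and 0.327% ± 0.00345 at D5 (SD, n = 3 each; exact permutation p = 0.1, two-sided). The copy with most counts was *Gm13456*, at 12.7 ± 1.17 and 7.38 ± 0.933 CPM. With all copies added, the log2 fold change of *Eef1a1* stayed at -0.16.

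**Figure D3:**
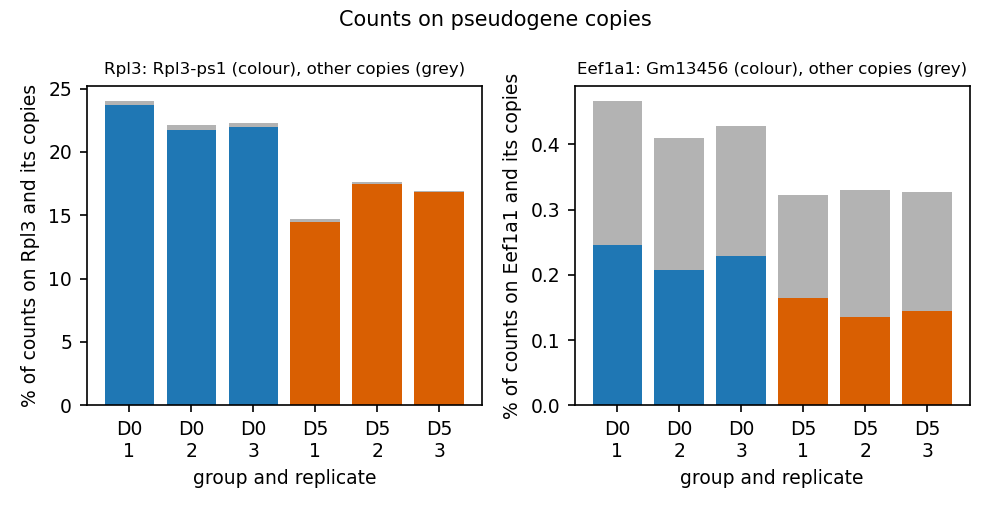
Share of the counts on a gene and its pseudogene copies that fell on the copies (%), for *Rpl3* (left) and *Eef1a1* (right) in each of the 6 libraries, with the most counted copy in colour (blue D0, orange D5) and the others in grey. The share for *Rpl3* runs from 22.1% to 24% at D0 and from 14.7% to 17.6% at D5, while that for *Eef1a1* is under 0.5% throughout.

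Genes beside *Rpl3l* had far more counts than *Rpl3l*. *Msrb1*, 499 bases from *Rpl3l*, rose from 20.2 ± 1.66 to 25.4 ± 1.75 CPM (log2 fold change 0.33, adjusted p = 1.5e-05, edgeR), and *Ndufb10*, at 3342 bases, rose from 45.7 ± 1.39 to 67.1 ± 3.06 CPM (0.55, adjusted p = 4.4e-13, edgeR). With scaling to the spike-ins, these log2 fold changes were -0.21 and -0.02, with no call. The nearest genes with a count to *Eef1a2* were *Ppdpf*, at 30233 bases, with 13.8 ± 0.654 and 15.3 ± 2.31 CPM (0.15, adjusted p = 0.072, edgeR), and *Chrna4*, which had at most 1 count in any library. *Snord83b* and *Snord43*, small RNAs within *Rpl3*, had log2 fold changes of 0.40 (adjusted p = 0.019) and -0.74 (adjusted p = 0.00021) in edgeR's test, and that of *Snord83b* turned to -0.11 with scaling to the spike-ins. *Syngr1*, which overlaps *Rpl3* on the opposite strand, rose from 1.8 ± 0.143 to 15.4 ± 0.966 CPM (3.09, adjusted p = 2.1e-22, edgeR).

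*Rpl3* fell together with most ribosomal protein genes. Of the 45 other genes of the 60S subunit, 29 were lower at D5, 8 were higher and 8 had no call, with a median log2 fold change of -0.20. Of the 33 genes of the small (40S) subunit, 25 were lower, 1 was higher and 7 had no call, with a median of -0.34. The background was 40.8% lower and 42.2% higher. Within the 60S list 19 genes had a lower log2 fold change than *Rpl3* and 26 a higher one, so *Rpl3* lay within the range of its complex.

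The largest fall of the 60S list was that of *Rpl13a* (-1.34), from 55.5 ± 3.97 to 22 ± 1.57 CPM. *Rpl14* (0.20) and *Rpl9* (0.17) rose most. In the 40S list *Rps12* (-0.99) and *Rps2* (-0.96) fell most, and *Rps27a* (0.15) was the gene that rose. The rises of *Rpl14*, *Rpl9* and *Rps27a* turned to -0.36, -0.39 and -0.41 with scaling to the spike-ins. With total counts alone, 2 of the 60S genes and 0 of the 40S genes were higher, and without D0 replicate 3 only 3 of the 60S genes were. Beside these genes, *Rpl24* had 1.96 ± 0.176 CPM and *Rps10* 6.32 ± 0.277 CPM at D0, while *Rpl3* had 395 (these 2 were chosen after their values were seen). Many of these genes have processed pseudogenes, and counts lost to them were not measured for genes other than *Rpl3* and *Eef1a1*.

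*Eef1a1* belongs with the elongation factors of translation. Of 14 other elongation and termination factors, 3 rose, 6 fell and 5 had no call, with a median log2 fold change of -0.01, and 5 lay below *Eef1a1* and 9 above it. Over all genes tested, 42.2% were higher and 40.8% lower. *Eef1b2* (0.14) and *Eef1d* (0.12), subunits of the exchange factor that reloads eEF1A with GTP, rose, whereas *Eef1g* (-0.40), a further subunit, fell from 256 ± 9.81 to 194 ± 1.61 CPM. *Eef2*, the translocase, was at 2733 ± 49.5 CPM in myoblasts and at 2780 ± 43.7 CPM in myotubes (log2 fold change 0.02, adjusted p = 0.48, edgeR). *Pelo* (0.83), which rescues stalled ribosomes, rose from 2.92 ± 0.33 to 5.19 ± 0.275 CPM, and its partner *Hbs1l* (-0.16) fell. The release factors *Etf1* (-0.12) and *Gspt1* (-0.39) fell, as did *Eif5a* and *Eif5a2*. *Abce1*, which recycles ribosomes, was at 0.07 on the log2 scale (adjusted p = 0.052, edgeR), and *Gtpbp1* and *Gtpbp2*, GTPases related to eEF1A, had 0.05 and 0.06 (adjusted p = 0.3 and 0.22, edgeR). With scaling to the spike-ins the rises of *Eef1b2* and *Eef1d* turned to -0.41 and -0.42, and without D0 replicate 3 only 1 factor of the list was higher.

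Of 17 genes listed as modifiers and chaperones of eEF1A, eEF2 and RPL3, 5 rose, 7 fell and 5 had no call, with a median log2 fold change of 0.02. The background was 42.2% higher and 40.8% lower. The list holds *Chp1*, which in the mouse names a calcineurin-like protein and not a chaperone of eEF1A, and without it 6 of 16 fell. *Mettl18*, the histidine methyltransferase of RPL3, rose from 3.07 ± 0.595 to 4.37 ± 0.931 CPM (0.50, adjusted p = 0.0032, edgeR), although its libraries overlapped between the groups. *Grwd1*, a chaperone of RPL3, fell from 22.2 ± 0.353 to 15.9 ± 0.516 CPM (-0.49, adjusted p = 5e-09, edgeR). With scaling to the spike-ins *Mettl18* was at 0.03 and *Grwd1* at -1.07, both with no call. Of the lysine methyltransferases of eEF1A, *Eef1akmt1* (0.39) rose and *Eef1akmt3* (-0.79) fell, the latter with 6 to 27 counts in a library and with no call in DESeq2. *Eef1akmt1* turned to -0.17, with no call, when scaled to the spike-ins. *Eef1akmt2* (-0.13), *Eef1akmt4* (0.06) and *Mettl13* (0.11), which also methylate eEF1A, had no call. *Eef2kmt* (0.75), a methyltransferase of eEF2, rose, and *Eef2k* (-1.01), the kinase that inhibits eEF2, fell from 52.4 ± 1.21 to 25.9 ± 2.26 CPM. Of the genes for the diphthamide modification of eEF2, *Dph7* (0.54) rose and *Dph5* (-0.70), *Dph6* (-0.55) and *Dph2* (-0.33) fell. *Dph1* (0.02) and *Dph3* (0.07) had no call. *Zpr1* (0.21, adjusted p = 0.00012, edgeR), also of the list, rose, and turned to -0.35 with scaling to the spike-ins. Under that scaling no gene of the list was called higher.

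Of 38 initiation factors, 13 rose and 19 fell, with a median log2 fold change of -0.07. *Eif4a2* (0.97), an RNA helicase, rose from 251 ± 5.63 to 490 ± 28.4 CPM, and *Eif2b4* (0.63), of the exchange factor of eIF2, also rose, while *Pabpc1* (-1.49) and *Eif4e3* (-1.12) fell most. Of 13 genes for the control of translation, 5 rose and 7 fell, with a median of -0.27. For both lists the background was 42.2% higher and 40.8% lower. *Rptor* (0.78), of mTOR complex 1, and *Eif2ak1* (0.66), a kinase of eIF2, rose, whereas *Eif2ak3* (-2.02), the eIF2 kinase of the endoplasmic reticulum, fell from 98.6 ± 2.25 to 24.2 ± 1.11 CPM. *Eif4ebp1* (-0.90), an inhibitor of the cap-binding factor eIF4E, fell as well.

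**Figure D4:**
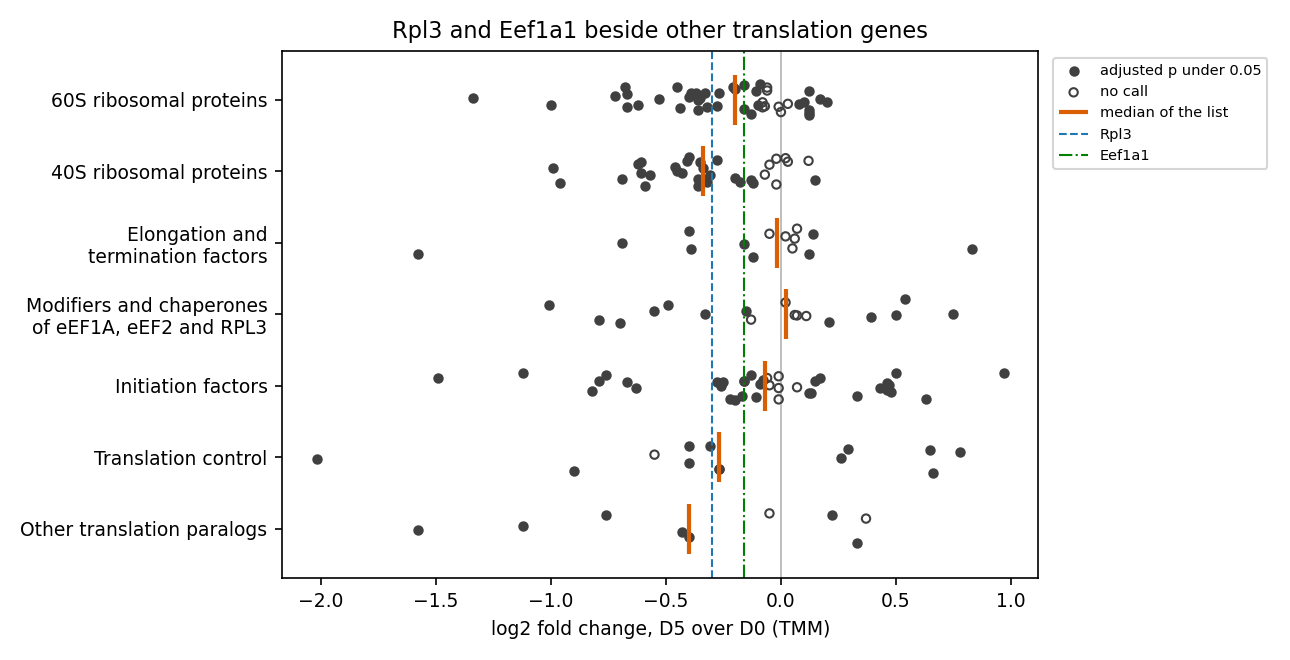
Log2 fold change (D5 over D0, TMM scaling) of each tested gene of 7 translation lists, 1 point per gene, filled where the adjusted p was under 0.05 (edgeR), with the median of each list in orange. The dashed line marks *Rpl3* at -0.30 and the dash-dotted line *Eef1a1* at -0.16, both within the range of the ribosomal protein lists, whose medians are -0.20 and -0.34.

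The genes whose centred log2 CPM profile over the 6 libraries lay nearest to that of *Rpl3* were *Hspa5*, *Rps4x* and *Tor2a*, with root-mean-square differences of 0.02, 0.022 and 0.023. For *Eef1a1* they were *Ppp1r7*, *Gmps* and *Wdr46*, with differences of 0.0098, 0.01 and 0.014. *Rps4x* is the only ribosomal protein gene among these 6. *Rpl3l* and *Eef1a2* had too few counts for such a profile.

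Striated muscle of the heart and neurons are the other tissues known for the muscle paralogs, and markers of these cells and of fibroblasts were read beside the result. The background for these markers was 42.2% higher and 40.8% lower over all genes tested. Of 6 cardiomyocyte markers, 2 rose, 1 fell and 3 were not tested, and their summed level was 1.95 to 2.45 CPM at D0 and 25.4 to 31.4 CPM at D5. *Myh6*, a myosin heavy chain, made up most of it at D5 with 584, 719 and 690 counts, while *Nppa* and *Myl7* were at 3 counts or fewer in every library. Of 6 neuron markers, 2 rose, 1 fell and 3 were not tested, with a summed level of 46 to 51.3 CPM at D0 and 32.5 to 37 CPM at D5. *Nefl* fell from 45.5 ± 2.79 to 0.669 ± 0.093 CPM, whereas *Stmn2* rose from 3.56 ± 0.46 to 33.3 ± 2.28 CPM and *Syp* from 0.214 ± 0.0763 to 0.522 ± 0.0825 CPM, the last without a call when scaled to the spike-ins. *Rbfox3* was at 0 in every library, and *Snap25* had at most 1 count. Of 6 fibroblast markers, 5 rose, and their summed level was 556 to 580 CPM at D0 and 4102 to 4288 CPM at D5. *Dcn* rose from 0.375 ± 0.105 to 242 ± 19.1 CPM, *Thy1* had at most 1 count in any library, and *Col3a1* was already at 547 ± 12.4 CPM in myoblasts. The part of other cells in the levels of the 4 genes was not tested. In these bulk libraries a change in the share of cells and a change in RNA per cell cannot be told apart.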

How the data were processed

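For each sample the authors deposited raw counts of reads per gene from featureCounts on GRCm38, without normalization, as whole numbers. The labels name Tophat2 and the study's methods HISAT2 as the aligner, and read length, strand setting and annotation release are not given in the sources used here. Rows for 92 ERCC spike-ins and a nameless row equal to the column total were left out. Of the 54525 gene rows, 99.93% matched GENCODE vM21, used for positions, lengths and sequences. The counts were scaled with TMM factors to CPM and tested with the quasi-likelihood method of edgeR 4.0.16 (R 4.3.3) after filterByExpr, without covariates, with Benjamini-Hochberg adjustment over 16290 genes and a threshold of 0.05. The 4 genes, the lists and the tests were chosen with earlier results of these data known. Genes named from the lists are the 2 with the largest rise and fall past the threshold, all elongation factors and other paralogs, and neighbours, copies and the 3 closest profiles, with further list members added for their roles, and 1 gene that this rule names is not reported here. A test of the log2 ratio within pairs had no value where a paralog had 0 counts, and was run on the share instead. Between replicates, chi-square divided by its degrees of freedom was 2.163 to 3.453, above sampling noise. The fits were tested on simulated data. Alternatives were DESeq2 1.42.0, upper-quartile, total-count and spike-in scaling, other filters, each library left out, a replicate block, coding length, and pseudogene counts added.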

Additional observations from a re-analysis of the deposited data

How the results depend on the processing

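The directions of *Rpl3* and *Eef1a1* held under every alternative run. Leaving out each library in turn gave log2 fold changes from -0.36 to -0.28 for *Rpl3* and from -0.18 to -0.15 for *Eef1a1*. Scaling to the ERCC spike-ins moved most: *Rpl3* was at -0.85 and *Eef1a1* at -0.73, neither past the threshold. Of the 16290 genes tested, 1813 were then higher and 3747 lower. Under this scaling no gene of the translation lists was higher (0). Lower were 5 of 45 genes of the 60S list, 2 of 33 of the 40S list and 2 of 14 elongation and termination factors. So were 3 of 17 modifiers, 5 of 38 initiation factors, 2 of 13 genes of translation control and 3 of 9 other paralogs. With total counts alone, where the median of all genes was -0.08, 2 genes of the 60S list, 0 of the 40S list and 1 elongation factor were higher, and without a filter 2 of the 60S list were. Leaving out each library gave 3 to 8 higher genes of the 60S list (5 without D0 replicate 2 and 3 without D0 replicate 3), 1 to 2 of the 40S list (2 without D0 replicate 2 or without D5 replicate 1) and 1 to 4 elongation factors (1 without D0 replicate 3). The cause was not tested.

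The deviations of libraries with the same replicate number had correlations of 0.0277 to 0.0645, under 0.1, so the numbers were not taken as pairs, although each D0 library correlated best with its own number. With the replicate block, *Rpl3* was at -0.30, *Eef1a1* at -0.16, 6894 genes were higher, 6664 lower, and 2 genes of the 40S list were higher. The share of *Rpl3l* at D5 was 0.083% per coding length, and 0.143% to 0.195% with a library left out. The lower bound of its fold was 2.45 with spike-in scaling and 3.2 to 4.3 with a library left out. Depth limits *Rpl3l* and *Eef1a2*, with at most 8 and 3 counts in a library.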
